A study of Mus musculus with 6 samples.

Results

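Cytosolic ribosomal protein genes were followed in inguinal white adipose tissue (IngWAT) of mice in which Hdac3 is deleted with an adipocyte Cre. The genes were taken by name from the count tables: a protein-coding gene belonged to the family if its GENCODE symbol on mouse GRCm38 was Rpsa, or began with Rpl or Rps followed by a digit (or by p and a digit), was neither an Rps6k kinase nor a symbol ending in -ps, and had at least 10 counts summed over the samples. This gave 85 of the 46517 genes in the tables, 51 of the large subunit and 34 of the small subunit. Of these, 84 reached 1 CPM (counts scaled to the size of each library) in some sample and were tested, and Rpl24 did not. Rps19bp1 met the rule by its letters but encodes a protein that binds RPS19 and is no part of the ribosome. Rpl10l, the testis copy of Rpl10, had 0 counts and was left out.

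RNA-seq was run on 3 floxed and 3 H3atKO samples. Per the labels, all mice were C57Bl6 of 5 to 9 months on chow under standard housing, and all carried floxed Hdac3 alleles. H3atKO mice also carried Cre under the adiponectin promoter (Adipoq-cre), which is active in adipocytes, so the allele is not deleted in cells of the tissue without Cre. Each library came from 500 ng of RNA pooled over 2 or 3 mice, and n = 3 pools per genotype throughout. Pools average their mice, so the spread between samples is a spread between pools. Hdac3 itself fell from 68.9, 80.3 and 65.8 CPM in floxed 1, 2 and 3 to 27.4, 21.1 and 12.9 CPM in H3atKO 1, 2 and 3 (log2 fold change -1.83 ± 0.32 (SE), adjusted p = 0.0213). The 7 adipocyte markers checked were all present, with a summed level of 13497 to 29184 CPM in floxed and 15402 to 26597 CPM in H3atKO, and the genotypes overlapped in this sum. The median log2 fold change of the 7 markers was -1.49 in limma, which called 0 of them (2 lower at an unadjusted p under 0.05). EdgeR's quasi-likelihood test called 1 of the 7 lower, the model with a replicate block 3, DESeq2 3 and quality weights 5. In the same order, these fits called 18.4, 28.7, 23.2 and 29.7% of all genes lower, and limma 7.07%. The part of these markers in the levels of ribosomal protein genes was not tested.

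Ribosomal proteins coat the ribosomal RNAs of the small subunit, which decodes the messenger, and of the large subunit, which forms the peptide bond. They are made in matched amounts from messengers that carry a terminal oligopyrimidine (TOP) tract at the 5′ end, through which the growth kinase mTORC1 controls their translation. Several family members also act outside the ribosome, and a few have paralogs with restricted expression. Most of the genes have left many processed pseudogenes in the mouse genome, and reads that fit both gene and pseudogene are lost to counting programs that keep only uniquely placed reads.

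Start sites are shown for 6 genes that passed the test below, since the TOP tract lies at this position. Each line gives 30 bases of GRCm38.p6 from RefSeq around the annotated start, read 5′ to 3′ on the coding strand with the start site in the middle, and capitals mark the pyrimidine words CTTTC and CTTCC. In Rpl7a a further CTTTC begins at the last C of the marked word, and its other letters are left small. The first 3 genes were down-regulated and hold such a word, Rpl15 was upregulated and holds both words with a shared C, and Rpl26 and Rps28 were down-regulated and hold neither within 20 bases of the start. Rpl34 has a second annotated start, with a window at chr3:130730384-130730413 that is not printed. That window covers the 5′ end of the GENCODE gene (130730398) and also holds CTTCC. The printed windows of Rps18, Rpl15 and Rpl7a lie inside their GENCODE genes, whose 5′ ends are at 33956001, 18271391 and 26910764.
Rpl7a, chr2:26910792-26910821 (+ strand): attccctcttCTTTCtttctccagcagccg
Rps18, chr17:33955651-33955680 (- strand): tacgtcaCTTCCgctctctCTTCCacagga
Rpl34, chr3:130730323-130730352 (- strand): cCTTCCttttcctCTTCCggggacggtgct
Rpl15, chr14:18270972-18271001 (- strand): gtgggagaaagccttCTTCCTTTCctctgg
Rpl26, chr11:68901551-68901580 (+ strand): ctcgcggcaacttacagaaccggaagtcgc
Rps28, chr17:33824548-33824577 (- strand): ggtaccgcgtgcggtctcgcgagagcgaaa

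A RefSeq promoter could be matched for 65 members, and 31 of these (47.7%) had CTTTC or CTTCC on the coding strand within 20 bases of the start, against 15.8% of all 27025 genes with a promoter. The same words on the opposite strand were found in 24.6% of the members and 16.1% of all genes. The median log2 fold change between genotypes was -0.92 among the 31 tested members with the word and -1.03 among the 33 tested members without it. Annotated starts can lie several bases from the start used in a tissue, so a match is a description of these letters.

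The share of counts on the family was lower in each H3atKO sample than in each floxed sample. Counts on the 85 genes made up 1.01, 0.735 and 0.872% in floxed and 0.562, 0.299 and 0.32% in H3atKO of all counts on genes outside the mitochondrial genome. Against all counts, including those on the mitochondrial genome, the share was 0.94, 0.679 and 0.76% in floxed and 0.411, 0.198 and 0.207% in H3atKO. In bulk tissue, fewer cells rich in these messengers and less of them per cell cannot be told apart. The ratio of large to small subunit counts was 1.32, 1.34 and 1.25 in floxed and 1.13, 1.27 and 1.29 in H3atKO, and the genotypes overlapped in this ratio.

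Levels were then scaled with the trimmed mean of M values (TMM) and are given as CPM after that scaling. The median log2 CPM of the 84 tested members was 5.70, 4.84 and 4.52 in floxed and 3.83, 3.34 and 2.74 in H3atKO. Every H3atKO sample lay below every floxed sample, but floxed 1 also stood 0.60 log2 units above floxed 3 when the members were compared gene by gene and the median taken, with 33 of the 84 members more than 2-fold higher in floxed 1. The plot of all members by sample shows this gradient within the floxed group as well as between genotypes.

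**Figure D1:**
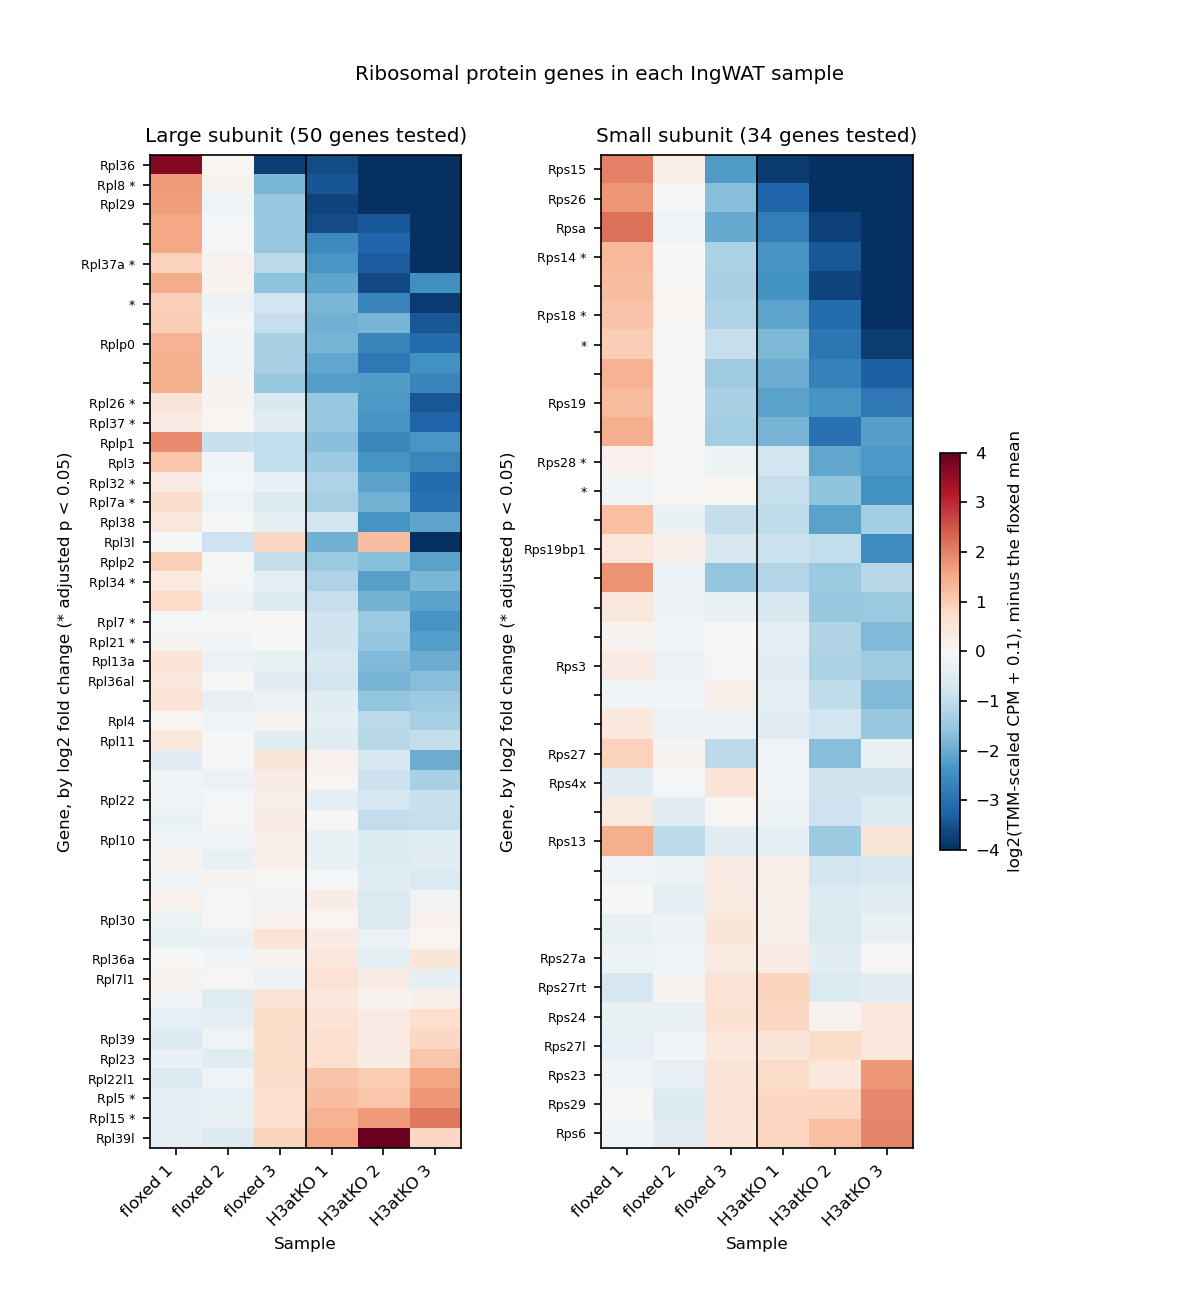
Levels of the 84 tested members in each of the 6 samples, large subunit on the left and small subunit on the right, in order of log2 fold change. Colour is log2(TMM-scaled CPM + 0.1) minus the mean of the 3 floxed samples, limited to 4 either way, stars mark an adjusted p under 0.05, and only genes named in the text carry a label. Most rows turn blue in H3atKO, floxed 1 is the reddest column among the steepest rows, and a short block at the foot of each panel is redder in H3atKO.

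Of the 84 tested members, 15 were down-regulated and 2 upregulated in H3atKO at an adjusted p under 0.05 (limma voom). The 15 made up 17.9% of the tested members, where 7.07% of the 14967 genes tested were called lower, and the 2 made up 2.38%, where 9.42% of all genes were called higher. The median log2 fold change was -1.24 over the members and -0.09 over all genes tested, with 66 members negative and 18 positive. In 49 members (58.3%) all 3 H3atKO samples lay below all 3 floxed samples, against 28.6% of all genes, and in 5 (5.95%) they all lay above, against 23.1%.

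The number of calls depended on how the spread was modelled. Samples with the same replicate number deviated together, and with the replicate number as a block 48 members were down-regulated and 7 upregulated, where 28.7% and 24.8% of all genes were called in those directions. By edgeR's quasi-likelihood test 38 were down-regulated and 2 upregulated, where 18.4% and 12.8% of all genes were called. With scaling by library size alone 57 were down-regulated and 0 upregulated (1 at an unadjusted p under 0.05), where 37.9% and 2.04% of all genes were called, and the median of all genes itself moved to -0.94. Under TMM the members' median lay -1.15 from that of all genes, and under library sizes alone -1.17. Leaving out 1 sample other than floxed 3 ended most calls, over all genes as well as in the family: 0 members were called in either direction by limma without floxed 1, floxed 2, H3atKO 2 or H3atKO 3, where 22 to 41 were lower and 3 or 4 higher at an unadjusted p under 0.05. In these 4 fits 0 to 0.93% of all genes were called lower and 0.00673 to 2.64% higher. Without H3atKO 1, 1 member was called lower (0.317% of all genes), and without floxed 3, 41 were called lower and 7 higher (25.9% and 18.5% of all genes). The median over the members stayed between -1.54 and -1.02 in these 6 fits.

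The large subunit had 10 genes down-regulated and 2 upregulated of 50 tested, with a median log2 fold change of -1.46. The small subunit had 5 down-regulated and 0 upregulated of 34 (0 by edgeR, 3 with the replicate block, and 1 at an unadjusted p under 0.05 in limma), with a median of -1.06. All 3 H3atKO samples were below all 3 floxed samples for 30 large subunit genes and for 19 small subunit genes. The difference between the subunits was not tested.

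The lowest fold changes belonged to Rpl36, Rps15, Rpl8, Rpl29 and Rps26, and only Rpl8 of these passed the test. Rps15, whose product sits near the decoding site of the small subunit, had 233, 68.4 and 12.1 CPM in floxed and 3.95, 2.04 and 0.822 CPM in H3atKO (log2 fold change -4.83 ± 1.58 (SE), adjusted p = 0.0654, 0.00288 with the replicate block). On the log scale the gap between floxed 1 and floxed 3 was wider than that between floxed 3 and any H3atKO sample, although the genotypes did not overlap. Rpl8 (chr15:76904078-76906314), which encodes uL2 beside the peptidyl transferase centre, had 233, 78.3 and 19.8 CPM in floxed and 6.42, 3.11 and 1.77 CPM in H3atKO and was down-regulated (log2 fold change -4.38 ± 1.22 (SE), adjusted p = 0.049). Rps26, whose product lines the messenger exit channel, had 101, 27.4 and 8.99 CPM in floxed and 3.05, 1.58 and 0.632 CPM in H3atKO (log2 fold change -4.22 ± 1.35 (SE), adjusted p = 0.0631, 0.00288 with the block). Rpl29 had 21.1, 5.94 and 2.26 CPM in floxed and 0.412, 0.255 and 0.253 CPM in H3atKO (log2 fold change -4.34 ± 1.42 (SE), adjusted p = 0.0649, 0.00355 with the block). In these 4 genes floxed 1 was highest, floxed 3 the lowest floxed sample and every H3atKO sample lower still. Nearly all reads of Rpl36 came from floxed 1, with 971, 70 and 1 counts in the floxed samples and 1, 0 and 0 counts in H3atKO (log2 fold change -4.96 ± 4.07 (SE), adjusted p = 0.363, 0.0173 with the block), so its fitted value rests on counts near 0 and is no measure of size.

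In the remaining down-regulated genes of the large subunit the 3 floxed samples stayed within 4.02-fold of each other, against 11.8-fold in Rpl8. Rpl37a, which encodes a small zinc-binding protein, had 61.9, 37 and 15.4 CPM in floxed and 6.47, 3.21 and 1.96 CPM in H3atKO (log2 fold change -3.20 ± 0.76 (SE), adjusted p = 0.0363). Rpl37 had 35.1, 29.4 and 21 CPM in floxed and 9.68, 5.4 and 2.91 CPM in H3atKO (log2 fold change -2.34 ± 0.47 (SE), adjusted p = 0.0271). All 3 H3atKO samples lay below the lowest floxed sample in both, and in Rpl37 the floxed samples stayed within 1.68-fold of each other. Rpl32 (chr6:115805505-115808747), the gene with the highest level per kilobase of coding transcript, had 229, 181 and 154 CPM in floxed and 78.8, 42 and 22.1 CPM in H3atKO (log2 fold change -2.10 ± 0.44 (SE), adjusted p = 0.03). It was the gene called in 2 of the 6 fits that left out a sample, while the other 16 called members were called in 1. Rpl26, whose product lies near the exit of the peptide tunnel and also binds the p53 messenger, had 105, 79.5 and 47.9 CPM in floxed and 25.8, 15 and 6.83 CPM in H3atKO (log2 fold change -2.35 ± 0.52 (SE), adjusted p = 0.0327).

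Rpl7a had 66.9, 37.5 and 27.4 CPM in floxed and 16.2, 11 and 5.06 CPM in H3atKO (log2 fold change -2.03 ± 0.53 (SE), adjusted p = 0.0437), and Rpl34 had 84, 63 and 50.4 CPM in floxed and 27.1, 14.2 and 18.1 CPM in H3atKO (log2 fold change -1.73 ± 0.35 (SE), adjusted p = 0.0272). Neither overlapped between genotypes. Rpl7 had 262, 272 and 278 CPM in floxed and 155, 97.7 and 52.6 CPM in H3atKO (log2 fold change -1.54 ± 0.39 (SE), adjusted p = 0.0406). Rpl21, the smallest change among the down-regulated genes, had 162, 140.3 and 148 CPM in floxed and 86.8, 51.5 and 32.6 CPM in H3atKO (log2 fold change -1.48 ± 0.36 (SE), adjusted p = 0.038). In Rpl7 and Rpl21 the floxed samples were close together and the 3 H3atKO samples spread over a wider range below them.

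In the small subunit, Rps14, Rps18 and Rps28 were among the down-regulated genes. Rps14, a platform protein whose human counterpart is lost in the 5q- syndrome, had 166, 66.8 and 27.9 CPM in floxed and 13, 6.22 and 2.91 CPM in H3atKO (log2 fold change -3.39 ± 0.89 (SE), adjusted p = 0.0436). Rps18, of the small subunit head, had 134, 63.4 and 25.8 CPM in floxed and 14, 7.09 and 3.1 CPM in H3atKO (log2 fold change -3.10 ± 0.83 (SE), adjusted p = 0.046). In both genes floxed 1 was highest and H3atKO 3 lowest.

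Rps28 had 23.9, 22 and 18.3 CPM in floxed and 12.5, 5.0 and 4.24 CPM in H3atKO (log2 fold change -1.69 ± 0.43 (SE), adjusted p = 0.0409), with a narrow floxed range. In Rpl7, of the large subunit, floxed 1 was the lowest floxed value, whereas it was the highest in Rps28.

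**Figure D2:**
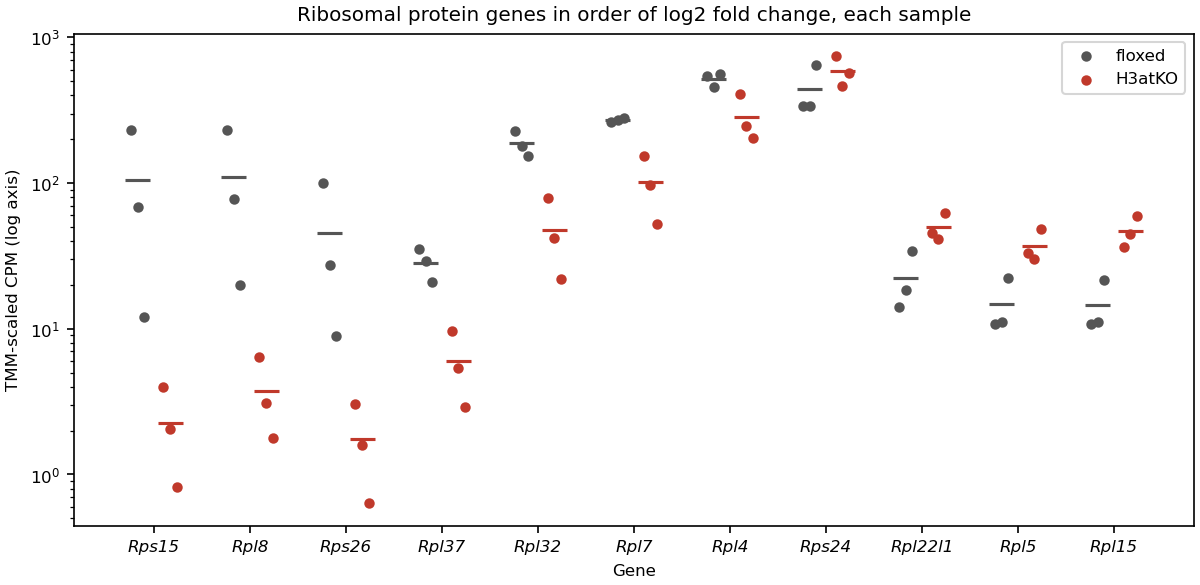
TMM-scaled CPM on a log axis of 11 ribosomal protein genes in each sample, in order of log2 fold change, with points for the 3 floxed and 3 H3atKO samples and a bar at each mean. The genotypes do not overlap except in Rps24, and the spread among floxed samples is far wider in Rps15, Rpl8 and Rps26 than in Rpl7.

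Genes with known further roles mostly had negative values without passing the test. The P stalk, which recruits the elongation factors, is built from Rplp0, Rplp1 and Rplp2. Rplp0 had 313, 111 and 48.9 CPM in floxed and 33, 18.5 and 14 CPM in H3atKO (log2 fold change -2.49 ± 0.73 (SE), adjusted p = 0.0536, 0.00304 with the block). Rplp1 stood at 174 CPM in floxed 1 against 23.6 to 25.4 in the other floxed samples and 7.85 to 14.9 in H3atKO (log2 fold change -2.18, adjusted p = 0.116, 0.00899 with the block). Rplp2 had a log2 fold change of -1.77 (adjusted p = 0.0698, 0.0048 with the block). In all 3 stalk genes the genotypes did not overlap.

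Rpl5 and Rpl11 form the 5S particle that binds MDM2 when ribosome assembly is disturbed. Rpl11 had 5.31, 3.97 and 2.97 CPM in floxed and 2.8, 1.78 and 2.02 CPM in H3atKO (log2 fold change -0.85 ± 0.44 (SE), adjusted p = 0.167), and its value with GC and length correction was 0.11. The genotypes did not overlap in Rpl11, while Rpl5 was upregulated and is described with Rpl15. Rpl13a, part of the interferon-induced silencing complex, had 268, 157 and 148 CPM in floxed and 119, 54.1 and 46.5 CPM in H3atKO (log2 fold change -1.44 ± 0.42 (SE), adjusted p = 0.0518, 0.0034 with the block). An unnamed protein-coding model on the same strand, Gm45713, shares exon bases with Rpl13a, so its count is uncertain. Rpl38, which helps translate Hox messengers in the embryo, was low at 2.74, 1.92 and 1.48 CPM in floxed and 1.15, 0.306 and 0.379 CPM in H3atKO (log2 fold change -1.82 ± 0.66 (SE), adjusted p = 0.0813, 0.0298 with the block), and its log2 fold change after GC correction was 0.28.

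Rpsa, which also acts as a laminin receptor, had 144, 27.7 and 7.68 CPM in floxed and 4.53, 2.24 and 1.52 CPM in H3atKO (log2 fold change -3.60 ± 1.44 (SE), adjusted p = 0.098, 0.00308 with the block). Rps3, which has a second role in DNA repair, had 287, 196 and 217 CPM in floxed and 173, 96.3 and 85.7 CPM in H3atKO (log2 fold change -1.03 ± 0.33 (SE), adjusted p = 0.0621, 0.00778 with the block). Rps19, the gene most often mutated in Diamond-Blackfan anaemia, had 85.1, 35.8 and 14.5 CPM in floxed and 8.03, 6.83 and 4.8 CPM in H3atKO (log2 fold change -2.44 ± 0.80 (SE), adjusted p = 0.0646, 0.00405 with the block). The genotypes did not overlap in these 3 genes. Rps27a, which encodes a fusion of ubiquitin and a ribosomal protein, had 17.3, 17.9 and 25.3 CPM in floxed and 25.2, 14.7 and 20.5 CPM in H3atKO and a log2 fold change of 0.00 (95% interval -0.74 to 0.74).

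Higher values in H3atKO were found in a small set of members. Rpl15 (chr14:18267823-18271391), whose product lies deep in the large subunit, had 10.8, 11.2 and 21.6 CPM in floxed and 36.5, 44.9 and 59.5 CPM in H3atKO and was upregulated (log2 fold change 1.73 ± 0.36 (SE), adjusted p = 0.0287). Rpl5 (chr5:107900502-107909005) had 10.9, 11.2 and 22.2 CPM in floxed and 32.9, 30.1 and 48.1 CPM in H3atKO and was upregulated (log2 fold change 1.37 ± 0.36 (SE), adjusted p = 0.0449). For both, all 3 H3atKO samples lay above the highest floxed sample, and scaling by library size alone kept the direction but not the call (log2 fold change 0.89 and 0.53). Both genes share exon bases with a gene on the opposite strand, Rpl15 with Nkiras1 (log2 fold change 0.23 ± 0.25 (SE), adjusted p = 0.495) and Rpl5 with Fam69a (log2 fold change 1.67 ± 0.37 (SE), adjusted p = 0.0332). Whether counting used the strand is not given in the sources used here, so the counts of these 2 genes are uncertain. The same limit applies to the down-regulated Rps28, Rps18 and Rpl32. They share exon bases with Kank3, Vps52 and Cand2 on the opposite strand, which had 10222, 3901 and 588 counts summed over the samples. Rps28, Rps18 and Rpl32 themselves had 3229, 10319 and 27367.

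Rps6, the substrate by which S6 kinase activity is read, had 4.22, 3.29 and 6.68 CPM in floxed and 8.32, 10.6 and 18.1 CPM in H3atKO (log2 fold change 1.33 ± 0.44 (SE), adjusted p = 0.0672, 0.00733 with the block). Rps29 had 0.527, 0.337 and 0.851 CPM in floxed and 1.03, 1.07 and 2.34 CPM in H3atKO (log2 fold change 1.31 ± 0.61 (SE), adjusted p = 0.137, 0.0396 with the block), a level of few counts. Rpl39l had the highest log2 fold change of the family at 2.17 (adjusted p = 0.0979), with one far higher sample that is given with the paralogs. With the block, Rpl23, Rps23 and Rpl22l1 also passed as upregulated. Rpl24, which failed the filter, had 9, 11 and 22 counts in the floxed samples and 19, 14 and 16 counts in H3atKO, and 0.198, 0.265 and 0.535 CPM in floxed and 0.782, 0.714 and 1.01 CPM in H3atKO, so only in CPM did all its H3atKO samples lie above the floxed ones.

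Within each sample, 7 paralogs could be compared with their parent genes, as the log2 ratio of their levels. The ratios are not scaled by length, so only their difference between genotypes is read, and with 3 samples a genotype a two-sided exact permutation test cannot go below p = 0.1. In 3 of the 7 pairs the genotypes did not overlap. The log2 ratio of Rpl7l1, a factor of large subunit assembly with 50.2% coding identity to Rpl7, was -2.66, -2.79 and -3.08 in floxed and -1.44, -1.03 and -0.83 in H3atKO, a difference of 1.74 (exact permutation p = 0.1, adjusted over 7 pairs 0.233). Rpl7l1 itself had 41.6, 39.4 and 32.9 CPM in floxed and 56.8, 47.8 and 29.6 CPM in H3atKO (log2 fold change 0.22 ± 0.30 (SE), adjusted p = 0.588), while Rpl7 was down-regulated as given above.

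Rpl22l1 (chr3:28805436-28807424), which takes the place of Rpl22 on ribosomes when that gene is lost, had a log2 ratio to Rpl22 of -3.15, -2.86 and -2.22 in floxed and -1.25, -1.05 and -0.27 in H3atKO, a difference of 1.89 (exact permutation p = 0.1, adjusted 0.233). Rpl22l1 had 14.1, 18.5 and 34 CPM in floxed and 45.3, 41.5 and 62.3 CPM in H3atKO (log2 fold change 1.24 ± 0.37 (SE), adjusted p = 0.0552, 0.00665 with the block), and Rpl22 had 125, 134 and 159 CPM in floxed and 108, 86.1 and 75.1 CPM in H3atKO (log2 fold change -0.64 ± 0.24 (SE), adjusted p = 0.0864). Both members of this pair were free of overlap between genotypes, in opposite directions. After GC correction the log2 fold change by limma was 0.52 (adjusted p = 0.163) for Rpl22l1 and -0.56 (adjusted p = 0.106) for Rpl22. With the GC content of the main coding transcript it was 0.18 (adjusted p = 0.531) and -0.96 (adjusted p = 0.0372). The coding sequences of Rpl22l1 and Rpl22 were 66.9% identical.

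Rpl36al had a log2 ratio to Rpl36a of 2.96, 2.66 and 1.98 in floxed and 1.28, 1.01 and 0.32 in H3atKO, a difference of -1.67 (exact permutation p = 0.1, adjusted 0.233). Rpl36al had 15.7, 11.4 and 8.48 CPM in floxed and 6.71, 3.11 and 3.48 CPM in H3atKO (log2 fold change -1.44 ± 0.44 (SE), adjusted p = 0.059, 0.00745 with the block), while Rpl36a lay between 1.53 and 2.78 CPM in all samples. Under correction for GC content these 3 differences were 2.36, 1.08 and -1.44, still without overlap.

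The other 4 pairs overlapped between genotypes. Rpl3l, the form of Rpl3 used in skeletal muscle and heart, had 2.92, 1.61 and 5.35 CPM in floxed and 0.70, 7.09 and 0.0632 CPM in H3atKO (log2 fold change -1.79 ± 1.25 (SE), adjusted p = 0.289). Rpl3 had 47, 20.1 and 10.9 CPM in floxed and 7.91, 4.13 and 3.48 CPM in H3atKO (log2 fold change -2.15 ± 0.71 (SE), adjusted p = 0.0664, 0.00315 with the block). Skeletal muscle markers summed to 1051, 577 and 2392 CPM in floxed and 368, 3157 and 2.47 CPM in H3atKO, in the same order of samples as Rpl3l, and their part in its level was not tested. Rpl39l, a copy of Rpl39 best known from testis, had 1.38, 1.2 and 3.4 CPM in floxed and 5.4, 28.3 and 3.22 CPM in H3atKO, and leaving out H3atKO 2 took the difference in its log2 ratio to Rpl39 from 1.55 to 0.49. The other 5 samples lay at or under 5.4 CPM. Rps27 was near the limit of detection at 1.14, 0.601 and 0.219 CPM in floxed and 0.494, 0.102 and 0.443 CPM in H3atKO, with 1.35% of its coding transcript unique, and Rps27rt, at 1.36 to 4.2 CPM over all samples, has a coding sequence identical to that of Rps27, so reads cannot be assigned between them with confidence. Rps27l, a p53 target with 76.2% coding identity to Rps27, had 28.3, 33.6 and 48.5 CPM in floxed and 50.04, 60.3 and 48.2 CPM in H3atKO (log2 fold change 0.56 ± 0.28 (SE), adjusted p = 0.158). Rpl10 and Rps4x, whose named paralogs were not members, had log2 fold changes of -0.43 and -0.57 (adjusted p = 0.234 and 0.218).

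**Figure D3:**
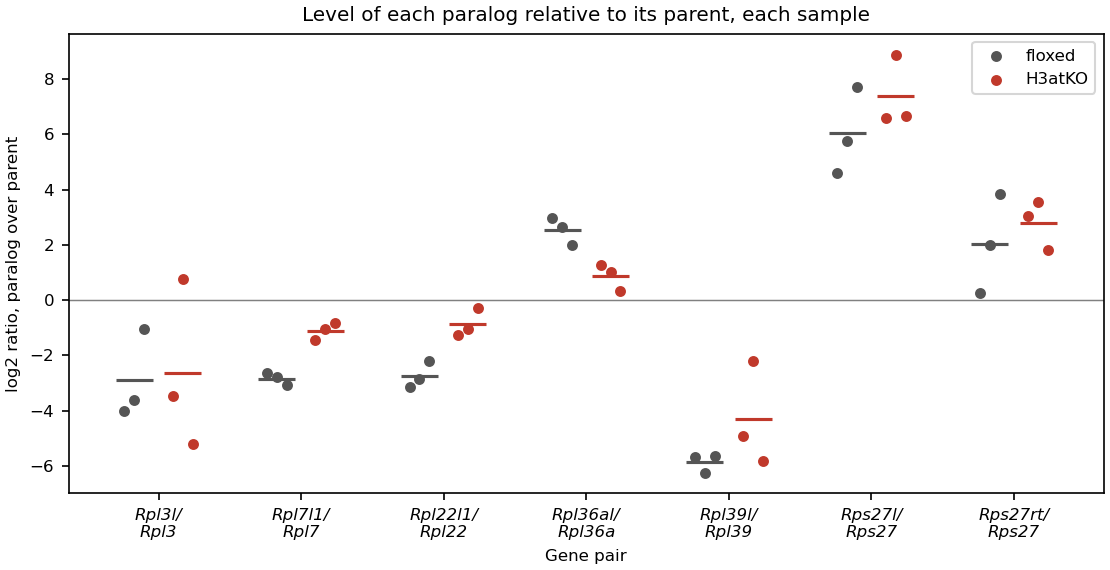
Log2 ratio of the level of each paralog to that of its parent gene in each sample, with points for the 3 floxed and 3 H3atKO samples and a bar at each mean. The ratios of Rpl7l1 and Rpl22l1 are higher in every H3atKO sample than in any floxed sample, that of Rpl36al is lower, and the other 4 pairs overlap.

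Most proteins of the ribosome are present in equal numbers, but the measured levels of their messengers were not. Mean floxed levels per kilobase of the main coding transcript ran from 1.47 to 363 CPM with a median of 41.7, a range of 248-fold over the 84 genes. Per kilobase of all annotated exon, Rpl4 and Rpl32 were among the highest at 258 and 195 CPM, and Rps13, Rps29 and Rps27 were lowest at 0.985, 0.825 and 0.627 CPM. Rpl4 had 539, 458 and 558 CPM in floxed and 406, 246 and 204 CPM in H3atKO (log2 fold change -0.92 ± 0.30 (SE), adjusted p = 0.067, 0.0235 with the block), the highest mean floxed CPM of the family. Rps24, the member highest in H3atKO, had 339, 339.9 and 646 CPM in floxed and 744, 463 and 566 CPM in H3atKO (log2 fold change 0.46 ± 0.34 (SE), adjusted p = 0.307), and its log2 fold change was -0.30 after GC correction and -0.39 with library sizes alone.

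Most members share sequence with copies elsewhere in the genome. Over the longest transcript, only 5 of the 85 members shared no 50-base word with a transcript of any other gene. By the same measure, 79 of the 84 tested shared words with an annotated pseudogene. Over the main coding transcript, under 50% was unique in 50 members, and Rps14, 1 of the 5, was 61.9% unique. The Spearman correlation of the members' summed counts with the unique share was 0.38 over 84 genes, and that of the log2 fold change with the unique share was -0.02. The median log2 fold change was -0.78, -1.46 and -1.23 from the least to the most unique tertile of members. Dividing by the unique part of the transcript left the spread of floxed levels at an SD of 2.11 log2 units, against 2.12 without this step. These correlations describe genes that share libraries and are no replicates.

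**Figure D4:**
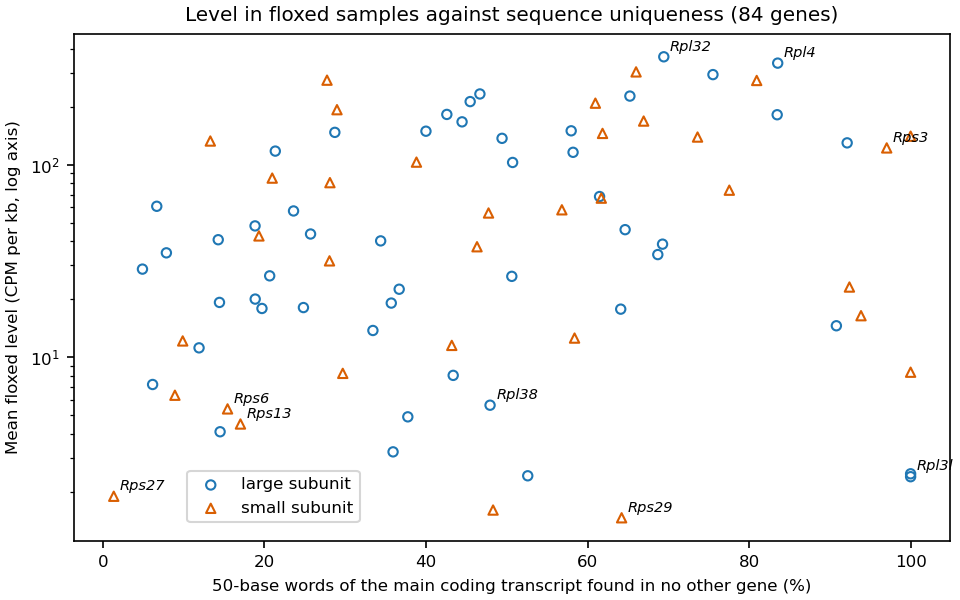
Mean level in the 3 floxed samples, in CPM per kilobase of main coding transcript on a log axis, against the percentage of 50-base words of that transcript found in no other gene, for the 84 tested members (circles, large subunit; triangles, small subunit). Levels span 248-fold, and genes of low level are found at every degree of uniqueness, such as Rps27 at 1.35%, Rps29 at 64.2% and Rpl3l at 100%.

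Fold changes ran with GC content inside the family. Taken over the longest transcript, GC content and log2 fold change had a Spearman correlation of -0.66 in the 84 members and of -0.71 in the 14922 tested genes with a GC value, all measured in the same libraries. Split into tertiles of 28 members from low to high GC content, the medians of log2 fold change were -0.17, -1.57 and -2.26, and 1, 6 and 8 genes were down-regulated. Both upregulated genes, Rpl15 and Rpl5, were in the lowest tertile. The same order appeared within the floxed group: the median log2 ratio of floxed 1 to floxed 3 was -0.70, 0.86 and 1.81 from the lowest to the highest tertile.

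The members' median GC content was 50.9%, against 49.2% for all genes tested. When GC content was corrected for in each sample, the members had a median of -0.76 and all genes one of 0.03 on the log2 scale, with -0.76 for the large and -0.74 for the small subunit. Then 8 members were down-regulated and 2 upregulated, where 3.06% and 5.55% of all genes were called. The 8 were Rpl7, Rpl10, Rpl21, Rpl30, Rpl32, Rpl37, Rpl37a and Rps28. With the replicate block as well, 35 were down-regulated and 5 upregulated, where 9.71% and 13.1% of all genes were called. Correction on the main coding transcript, without the block, called 7 members lower (2.99% of all genes), among them Rpl7, Rpl32 and Rpl37 of the 8. Rpl37a (-3.54, adjusted p = 0.0522), Rps28 (-0.75, 0.176), Rpl21 (-0.47, 0.307), Rpl30 (-0.35, 0.321) and Rpl10 (-0.22, 0.536) were not called there. Rpl30 and Rpl10 were not called without correction either (adjusted p = 0.774 and 0.234).

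Single genes kept or lost their values under this correction. Rpl32 had a corrected log2 fold change of -1.55 (adjusted p = 0.0437) and Rpl7 one of -2.08 (adjusted p = 0.039). Rpl26 went to -0.74 (adjusted p = 0.126) and Rpl34 to -0.33 (adjusted p = 0.458) with the 56.5 and 55.5% GC of their longest transcripts. With the 50.2 and 51.25% of their main coding transcripts, both were called, at -2.21 (adjusted p = 0.0392) and -1.37 (adjusted p = 0.0323). Rpl32 and Rpl7 were called with either measure. Rps26, at a GC content of 48.3%, stayed at -4.29 (adjusted p = 0.101). Rpl15 was 0.98 (adjusted p = 0.0413) with the 43.2% GC of its longest transcript, and 2.77 (adjusted p = 0.0319) with the 54.4% of its main coding transcript. Rpl5, whose GC content was the same in both, was 0.57 (adjusted p = 0.129) and 0.49 (adjusted p = 0.157). Rps6 went to 3.42 (adjusted p = 0.0497) with the 58.9% GC of its longest annotated transcript, and with that of its main coding transcript, 50%, the value was 1.43 (adjusted p = 0.0786). Correlation with the GC content of the longest transcript, the measure corrected for, was -0.16 over the members after correction. Against the GC content of the main coding transcript it was -0.60 before and -0.29 after this correction. The corrected medians were -0.58, -0.76 and -1.60 from the lowest to the highest tertile of that second measure, so a trend with it remained.

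**Figure D5:**
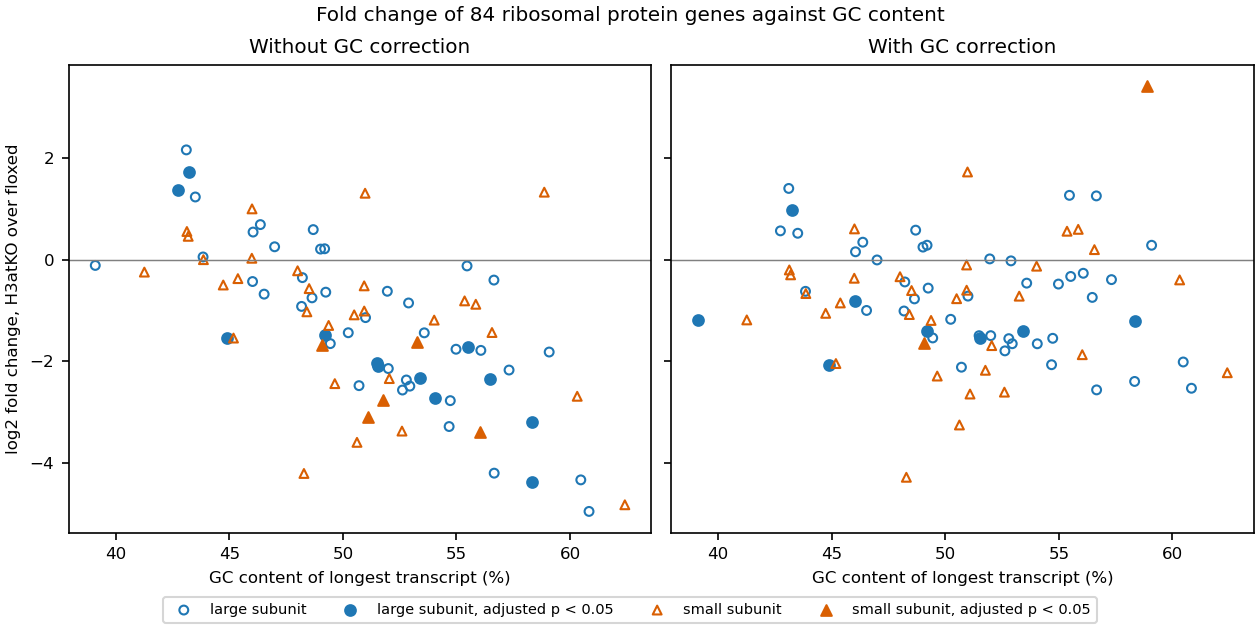
Log2 fold change of the 84 tested members (H3atKO over floxed) against the GC content of the longest transcript in percent, before (left) and after (right) correction for GC content in each sample. Circles are large and triangles small subunit genes, filled where the adjusted p was under 0.05. The cloud falls from left to right before correction, with a Spearman correlation of -0.66, and is nearly level after it, at -0.16, still mostly below 0. The axis shows the measure that was corrected for. Against the GC content of the main coding transcript the correlation after correction was -0.29.

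The machinery around the ribosomal proteins was described with lists of named genes. For comparison, limma called 7.07% of all genes lower and 9.42% higher, edgeR 18.4% and 12.8%, and the block 28.7% and 24.8%. Among ribosomal proteins with other symbols, Rack1, a scaffold on the small subunit head, was down-regulated at 250.4, 157 and 119 CPM in floxed and 68.6, 32.1 and 24.1 CPM in H3atKO (log2 fold change -2.11 ± 0.45 (SE), adjusted p = 0.0306), and Fau had 29.1, 9.93 and 5.57 CPM in floxed and 3.21, 2.45 and 0.948 CPM in H3atKO (log2 fold change -2.52 ± 0.85 (SE), adjusted p = 0.0699, 0.00355 with the block). Of 6 elongation factors, whose messengers also carry TOP tracts, 3 were down-regulated and 0 upregulated (0 by edgeR, with the block and at an unadjusted p under 0.05), with a median log2 fold change of -1.39. Eef2, the translocase, had 1210.2, 534 and 222 CPM in floxed and 91.6, 68.1 and 25.7 CPM in H3atKO (log2 fold change -3.23 ± 0.69 (SE), adjusted p = 0.0302). Eef1a1, which delivers aminoacyl-tRNA, had 2151, 1998 and 1634 CPM in floxed and 997, 683 and 350.2 CPM in H3atKO (log2 fold change -1.63 ± 0.40 (SE), adjusted p = 0.0394), and Eef1g had 88.1, 69.1 and 64.1 CPM in floxed and 45.2, 34.2 and 21.3 CPM in H3atKO (log2 fold change -1.15 ± 0.32 (SE), adjusted p = 0.0493). Among 7 other TOP messengers and nascent chain factors, limma and edgeR called 1, Vim, which was down-regulated (log2 fold change -1.28 ± 0.25 (SE), adjusted p = 0.0262). With the block, Npm1 (adjusted p = 0.00721) and Hnrnpa1 (adjusted p = 0.0198), named after their values were seen, were also called, both higher.

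Initiation, transcription of ribosomal RNA and assembly were described in the same way, and calls were found in both directions. The shares of all genes called were again 9.42% higher and 7.07% lower by limma, 12.8% and 18.4% by edgeR, and 24.8% and 28.7% with the block. Of 30 initiation factors, 9 were upregulated and 2 down-regulated, among them Eif5, which triggers GTP hydrolysis on the scanning complex, at 224, 284 and 371 CPM in floxed and 768, 774 and 891 CPM in H3atKO (log2 fold change 1.5 ± 0.26 (SE), adjusted p = 0.0213), Eif3j1 (log2 fold change 1.71 ± 0.31 (SE), adjusted p = 0.0231) and Eif2s2 (log2 fold change 1.41 ± 0.26 (SE), adjusted p = 0.0241). The 2 lower ones were Eif3k (log2 fold change -2.84 ± 0.76 (SE), adjusted p = 0.0463) and Eif3f (log2 fold change -1.34 ± 0.31 (SE), adjusted p = 0.0347). With the block, 11 initiation factors were called in each direction. Of 19 genes of the RNA polymerase I machinery, 3 were upregulated, Taf1d (log2 fold change 1.77), Twistnb (1.63) and Rrn3 (0.92), and Polr1c was down-regulated (-1.74). By edgeR 3 were higher and 6 lower, and with the block 3 higher and 7 lower. Of 60 ribosome biogenesis factors, 12 were upregulated and 0 down-regulated (13 lower at an unadjusted p under 0.05, 8 by edgeR and 15 with the block), led by Nmd3, the export adaptor of the large subunit (log2 fold change 1.48 ± 0.28 (SE), adjusted p = 0.0255), Utp18 (log2 fold change 1.46 ± 0.27 (SE), adjusted p = 0.0241) and Rpf2 (log2 fold change 1.39 ± 0.34 (SE), adjusted p = 0.0386).

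Of 15 tested genes of mTORC1 and growth signalling, Rps6kb1 (log2 fold change 1.20 ± 0.27 (SE), adjusted p = 0.0327) and Rheb (log2 fold change 1.04 ± 0.23 (SE), adjusted p = 0.0331) were upregulated, and Rps6kb2 (log2 fold change -2.63 ± 0.72 (SE), adjusted p = 0.0476) and Tsc2 (log2 fold change -1.90 ± 0.53 (SE), adjusted p = 0.0488) were down-regulated. Limma called 9.42% of all genes higher and 7.07% lower, and 5.55% and 3.06% after correction for GC content. After correction for GC content, 0 of the 9 upregulated initiation factors, 0 of the 12 upregulated biogenesis factors and 0 of the 4 called growth signalling genes were still called by limma. The corrected log2 fold change was 0.57 (adjusted p = 0.0695) for Eif5, 0.29 (adjusted p = 0.448) for Eif2s2, 0.87 (adjusted p = 0.0576) for Eif3j1 and 0.38 (adjusted p = 0.287) for Nmd3. Eif4h was then higher at 0.88 (adjusted p = 0.036) and Eif3f lower at -1.15 (adjusted p = 0.0384) among initiation factors. Among biogenesis factors Gar1 was higher at 2.02 (adjusted p = 0.0454), Rrs1 higher at 1.53 (adjusted p = 0.0352) and Ebna1bp2 lower at -1.24 (adjusted p = 0.0498), and Mtor was higher at 1.02 (adjusted p = 0.0291). Of the polymerase I genes, 0 of 19 were then called by limma in either direction, with 4 higher and 3 lower at an unadjusted p under 0.05. Eef2, Eef1a1 and Rack1 stayed lower at -1.5 (adjusted p = 0.0366), -1.83 (adjusted p = 0.0457) and -2.11 (adjusted p = 0.0372). Eif5a was the elongation factor then called higher, at 0.67 (adjusted p = 0.0469). Eif4h, Gar1, Rrs1, Ebna1bp2, Mtor and Eif5a were named after their values were seen.

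Several properties of the libraries moved with genotype or with sample. Samples had 23865507 to 35200685 counts on genes. The mitochondrial genome took 6.92, 7.61 and 12.9% in floxed and 26.9, 33.8 and 35.3% in H3atKO of these counts, and without its genes the members' median log2 fold change was -1.20 with the same 15 and 2 calls in number, where 6.94% and 8.93% of all genes were called. B cell markers summed to 120.2, 3.7 and 3.91 CPM in floxed and 359.7, 4.18 and 553 CPM in H3atKO and T cell markers to 49.9, 6.4 and 4.59 CPM in floxed and 123, 8.92 and 70.7 CPM in H3atKO, high in floxed 1, H3atKO 1 and H3atKO 3, and neither list had a gene called by limma (0 B cell and 1 T cell gene higher at an unadjusted p under 0.05) or edgeR, while the block called 3 and 4 of 7 higher. Macrophage markers had 3 genes down-regulated of 7, endothelial markers 2 of 6, stromal progenitor markers 1 of 7 and red blood cell markers 1 of 4, with no gene of these lists called higher. Beside these marker lists, limma called 7.07% of all genes lower and 9.42% higher, edgeR 18.4% and 12.8%, and the block 28.7% and 24.8%. Of 6 skeletal muscle markers, 0 were called by limma (4 lower at an unadjusted p under 0.05) or edgeR. In every marker list 0 genes were at 0 counts in all samples. Dividing cell markers, 0 of 5 called by limma and edgeR (0 at an unadjusted p under 0.05, and 2 higher with the block), summed to 17.5 to 46.2 CPM in floxed and 25.8 to 82.1 CPM in H3atKO. The part of these cells in the levels of ribosomal protein genes was not tested.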

How the data were processed

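The authors sequenced stranded poly(A) libraries and, per the labels, deposited raw counts per Ensembl gene: trimming with Cutadapt (1.3), alignment to GRCm38 with STAR (2.4.2a) and counting with HTSeq (0.6.1), which drops reads with several places. Members, lists and tests were chosen with earlier results of these data known. Genes with 1 CPM in at least 1 sample were tested with TMM (edgeR 4.0.16) and limma voom (3.58.1) in R 4.3.3 without a block, as in the study's methods, with Benjamini-Hochberg adjustment over 14967 genes. Deviations of samples with the same replicate number correlated at 0.510, 0.389 and 0.264 over these genes, so the numbers were taken to pair the samples; this comes from the data, since the labels name no shared litter or batch. Alternatives were edgeR's quasi-likelihood test, DESeq2 (1.42.0), quality weights, other scalings and filters, GC and length correction (a robust loess curve of each sample's deviations on GC, subtracted), the block and leaving out samples. Coordinates and transcripts are GENCODE M21, which matched 46005 of 46517 IDs. Uniqueness was scored against its transcripts, not the genome.

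Genes named were those with known further roles, paralog families, the 5 highest and lowest fold changes, the 3 highest and lowest levels per kilobase of exon, and called members (largest 15 of 17; the other 2, Rpl21 and Rpl5, come with the counts or roles). Some genes that meet these rules are not reported here. Rpl23, Rps23 and the members called after GC correction were named after their values were seen, as were Rps24, Rpl30 and the genes whose start sites are printed.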

Additional observations from a re-analysis of the deposited data

Results flagged for a closer look

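Signals from outside the members' own counts were compared between the genotypes. Alignments with more than 1 place, which htseq-count tallies but assigns to no gene, were 29.4, 28.3 and 35.2% in floxed and 43.8, 44.9 and 45.5% in H3atKO of the tallied alignments, with an H3atKO mean of 44.7%. They drew attention as the tally that would hold reads shared by ribosomal protein genes and their pseudogenes, and their genes of origin are not known. Counts on 141 of 269 pseudogenes with symbols ending in -ps came to 0.521, 0.898 and 1.3% in floxed and 1.87, 1.33 and 1.89% in H3atKO of the counts on the members, with an H3atKO mean of 1.69%. All 3 H3atKO samples lay above all 3 floxed samples in both percentages. The second divides by the counts on the members, whose own share was lower in H3atKO. The pseudogene counts themselves were 1725, 1847 and 2985 in floxed and 2023, 764 and 933 in H3atKO, and the genotypes overlapped. The part of reads with several places or on pseudogenes in the lower levels of ribosomal protein genes was not tested.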

How the results depend on the processing

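The members' median was negative in every fit run. With DESeq2 (23.2% of all genes lower, 19.6% higher), down-regulated genes numbered 42 in the family, 26 in the large subunit, 16 in the small subunit and upregulated genes numbered 5 in the family, 4 in the large subunit, 1 in the small subunit. With quality weights (29.7% of all genes lower, 26.7% higher), down-regulated genes numbered 43 in the family, 26 in the large subunit, 17 in the small subunit and upregulated genes numbered 13 in the family, 8 in the large subunit, 5 in the small subunit. With library sizes alone (37.9% of all genes lower, 2.04% higher), down-regulated genes numbered 57 in the family, 34 in the large subunit, 23 in the small subunit and upregulated genes numbered 0 in the family, 0 in the large subunit and the median log2 fold change was -2.12 for the members, -2.34 for the large subunit genes, -1.94 for the small subunit genes. With no filter on low counts (5.25% of all genes lower, 4.32% higher), upregulated genes numbered 1 in the family, 1 in the large subunit. With GC and length correction (3.13% of all genes lower, 5.69% higher), down-regulated genes numbered 8 in the family, 6 in the large subunit, 2 in the small subunit and upregulated genes numbered 1 in the family, 1 in the large subunit and the median log2 fold change was -0.63 for the members, -0.68 for the large subunit genes. With the replicate block (28.7% of all genes lower, 24.8% higher), down-regulated genes numbered 48 in the family, 28 in the large subunit, 20 in the small subunit and upregulated genes numbered 7 in the family, 4 in the large subunit, 3 in the small subunit. With the replicate block and GC correction (9.71% of all genes lower, 13.1% higher), down-regulated genes numbered 35 in the family, 22 in the large subunit, 13 in the small subunit and upregulated genes numbered 5 in the family, 2 in the small subunit and the median log2 fold change was -0.71 for the large subunit genes. With GC correction on the main coding transcript, chosen after seeing the data (2.99% of all genes lower, 5.4% higher), down-regulated genes numbered 7 in the family, 6 in the large subunit, 1 in the small subunit and upregulated genes numbered 1 in the family, 1 in the large subunit and the median log2 fold change was -0.68 for the large subunit genes. Only 16 members were at least 90% unique over the longest transcript. Of these 16, limma called 5 down-regulated, 2 of the large and 3 of the small subunit, and 0 upregulated (7.07% of all genes lower, 9.42% higher). The median log2 fold change was then -0.64 for the large subunit genes. Over the main coding transcript, the called Rpl34, Rps14 and Rps28 were 49.4, 61.9 and 47.7% unique. With edgeR's quasi-likelihood test (18.4% of all genes lower, 12.8% higher), down-regulated genes numbered 38 in the family, 25 in the large subunit, 13 in the small subunit. With a minimum of 10 counts in every sample (15% of all genes lower, 12.6% higher), down-regulated genes numbered 30 in the family, 19 in the large subunit, 11 in the small subunit. With GC correction (3.06% of all genes lower, 5.55% higher), down-regulated genes numbered 8 in the family, 1 in the small subunit and upregulated genes numbered 1 in the large subunit, 1 in the small subunit and the median log2 fold change was -0.76 for the large subunit genes. On leaving out 1 sample, down-regulated members numbered 0 to 41 (0 to 26 large, 0 to 15 small) and upregulated members 0 to 7 (0 to 5 large, 0 to 2 small), with family medians of -1.54 to -1.02. The replicate block ended no call of a named gene and, beyond the values given beside the genes, changed no other. Over all tested members, 13 turned sign with GC correction, 14 with GC and length correction, 11 with library sizes alone and 0 with the replicate block, and none of the 17 called members did in any fit run. Among the 48 named by rule these turned, with the value of the report first. Rpl11 (-0.85) had 0.11 with GC and length correction. Rpl36a (0.21) had -0.65 with library sizes alone, -0.20 with GC correction on the main coding transcript. Rpl38 (-1.82) had 0.28 with GC correction, 0.18 with GC and length correction, 0.58 with the replicate block and GC correction. Rpl39 (0.59) had -0.26 with library sizes alone. Rpl3l (-1.79) had 1.11 with the replicate block and GC correction. Rpl7l1 (0.22) had -0.65 with library sizes alone, and -0.008089 to 0.47 on leaving out a sample. Rps13 (-0.50) had 0.19 with quality weights, and -1.04 to 0.27 on leaving out a sample. Rps27 (-0.81) had 0.56 with GC correction, 0.61 with GC and length correction, 0.57 with the replicate block and GC correction. Rps27a (0.001155) had -0.001052 with edgeR's quasi-likelihood test, -0.87 with library sizes alone, -0.006495 with no mitochondrial genome genes, -0.12 with no filter on low counts, -0.11 with a minimum of 10 counts in every sample, -0.67 with GC correction, -0.51 with GC and length correction, -0.67 with the replicate block and GC correction, -0.15 with GC correction on the main coding transcript, and -0.21 to 0.18 on leaving out a sample. Rps27l (0.56) had -0.29 with library sizes alone, -0.20 with GC correction, -0.0203 with GC and length correction, -0.21 with the replicate block and GC correction, -0.0776 with GC correction on the main coding transcript. Rps27rt (0.03) had -0.005027 with quality weights, -0.87 with library sizes alone, -0.11 with no filter on low counts, -0.15 with a minimum of 10 counts in every sample, -0.37 with GC correction, -0.13 with GC and length correction, -0.31 with the replicate block and GC correction, -0.46 with GC correction on the main coding transcript, and -0.50 to 0.33 on leaving out a sample. The causes of these changes were not tested. With 3 pools per genotype, genes such as Rps27 and Rps29 rest on few reads, and Rpl36 on reads of 1 sample.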

Other observations

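Among genes with family names, 6 that GENCODE lists as pseudogenes were kept out of the members. Rps4l had 707 counts and Rpl37rt 417 counts summed over the samples, Rps3a2 had 54, Rps3a3 22, Rpl6l 18 and Rps12l1 0.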
